A study of Mus musculus with 10 samples.

Results

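The MYC network is the set of basic helix-loop-helix leucine zipper transcription factors that pair with MAX, or with its relative MLX, and bind E-box sequences in DNA. Its members were taken by name from the deposited gene table: Myc, Mycn, Mycl, Max, Mxd1, Mxd3, Mxd4, Mxi1, Mnt and Mlx. These are 10 of the 55359 genes in the table, and all 10 were measured in every library and passed the filter on low values (a mean of at least 0.1 FPKM over the 10 libraries). FPKM values are fragment counts scaled to gene length and library size, so that levels of different genes can be set side by side.

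MYC proteins bind DNA as heterodimers with MAX and activate genes for ribosome assembly, metabolism and cell growth. MXD proteins (here Mxd1, Mxd3, Mxd4 and Mxi1, also called Mxd2) and MNT compete for MAX at the same sites and recruit SIN3 corepressors, and most MXD genes are known to come on as cells leave the cycle and differentiate. MLX pairs with some MXD proteins and with the glucose sensors MondoA (Mlxip) and ChREBP (Mlxipl), while in marrow MYC and MYCN are known to act together in stem and progenitor cells.

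The data are RNA-seq of lineage-negative (Lin-) bone marrow cells, obtained by depletion with a mouse lineage kit, in 10 libraries from mice of 2 genotypes: 5 libraries from Dhx9f/f, labelled WT, and 5 from Dhx9f/f;MX1, labelled cKO. The study's methods count individual mice as replicates unless they state otherwise. Both groups carry the floxed Dhx9 alleles. The cKO mice also carry Cre under the interferon-responsive Mx1 promoter, which poly(I:C) switches on in blood cells and also in other interferon-responsive cells. The genotype of the cKO samples is labelled Dhx9 knock down. By the study's methods, mice were as a rule analysed a week after their first poly(I:C) dose, and the injections are described for the mice with MX1-Cre. The ages of the mice behind these libraries were not given in the sources used here. The comparison of cKO with WT addresses what the loss of the RNA helicase DHX9 does to the transcriptome of blood stem and progenitor cells.

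The level of the targeted gene went against the labels. Dhx9 was measured at 69.7 ± 2.84 FPKM (SD, n = 5) in the libraries labelled WT and at 140 ± 12 FPKM (n = 5) in the libraries labelled cKO, a rise of 1.0 on the log2 scale (limma, Benjamini-Hochberg adjusted p = 1.39e-05). The gene's value sums all its exons, so the deleted part could not be read on its own, and directions below are those of the libraries as labelled. Depths recovered from the values were 13824488 to 17167903 fragments in the libraries labelled cKO and 15029900 to 18694728 in those labelled WT. The sexes were not balanced: WT libraries 3, 4 and 5 had Xist between 99.2 and 128 FPKM and all the others under 1 FPKM. Marker genes of blood lineages also differed between the groups. The 10 erythroid markers summed to 567 to 1499 FPKM in WT and to 1876 to 3144 FPKM in cKO (5 called higher, 0 lower), and the 10 stem and progenitor markers to 96.0 to 131 FPKM in WT and to 23.1 to 47.7 FPKM in cKO (0 called higher, 8 lower). The monocyte and dendritic markers (7 of 8 called lower), the megakaryocyte markers (7 of 7), the mast cell, basophil and eosinophil markers (7 of 8), the neutrophil markers (4 of 10), the T and NK markers (4 of 6) and the B lymphoid markers (3 of 6) had calls to the lower side, and 0 were called higher in any of these lists. Of all genes tested, 4.60% were called higher and 16.8% lower. In WT the progenitor gene Kit stood at 45.9 FPKM, and of the T and NK list the T cell gene Cd3e was near 0 (0.098 FPKM) while Nkg7 stood at 82.6 FPKM and Ccl5 at 3.51 FPKM. In these bulk samples, fewer cells of a type and less RNA per cell cannot be told apart, and the part of either in each result below was not tested.

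The hexamer CACGTG is the preferred E-box of the network. RefSeq promoter windows (250 bases before to 50 after each start, GRCm38.p6) were searched for CACGTG, which reads the same on both strands. A window was at hand for 9 of the 10 members, Myc being the one without. The hexamer stood in the windows of 4 of these 9 members (44.4%), Max, Mlx, Mnt and Mxd4, against 7.15% of all 32851 windows and 8.09% of the 27025 genes with a window. The 4 matches are shown because they place the network's own binding letters in the promoters of its members, with the hexamer in capitals and 12 bases on each side, 5′ to 3′ on the gene's strand.
Max, - strand, chr12:76962234-76962263, 3 bases before the start: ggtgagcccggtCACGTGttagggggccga
Mlx, + strand, chr11:101087238-101087267, 40 bases before the start: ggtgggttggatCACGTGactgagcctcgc
Mnt, + strand, chr11:74830789-74830818, 123 bases before the start: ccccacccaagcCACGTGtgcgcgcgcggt
Mxd4, - strand, chr5:34187912-34187941, 219 bases before the start: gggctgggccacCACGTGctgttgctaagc
The windows of Mxd1, Mxd3, Mycl and Mycn and the 3 windows of Mxi1 did not hold these letters. A match is a description of the sequence and not a measured binding site.

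Of the 10 members, 0 were called higher and 3 lower in the libraries labelled cKO by limma, where called means an adjusted p under 0.05 and a change of at least 2-fold. Over the 18742 genes tested, 4.60% were called higher and 16.8% lower, so calls to the lower side were common in these data. By the adjusted p alone, 0 members rose and 6 fell, against 16.7% and 28.3% of all genes. No member was higher at an unadjusted p under 0.05 either (0 of 10). The members called lower were Mycn, Mycl and Mxd4, those that fell by less than 2-fold were Max, Mxd3 and Mlx, and Myc, Mxd1, Mxi1 and Mnt did not pass the test. The median log2 fold change was -0.32 over the members and -0.11 over all genes tested.

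**Figure D1:**
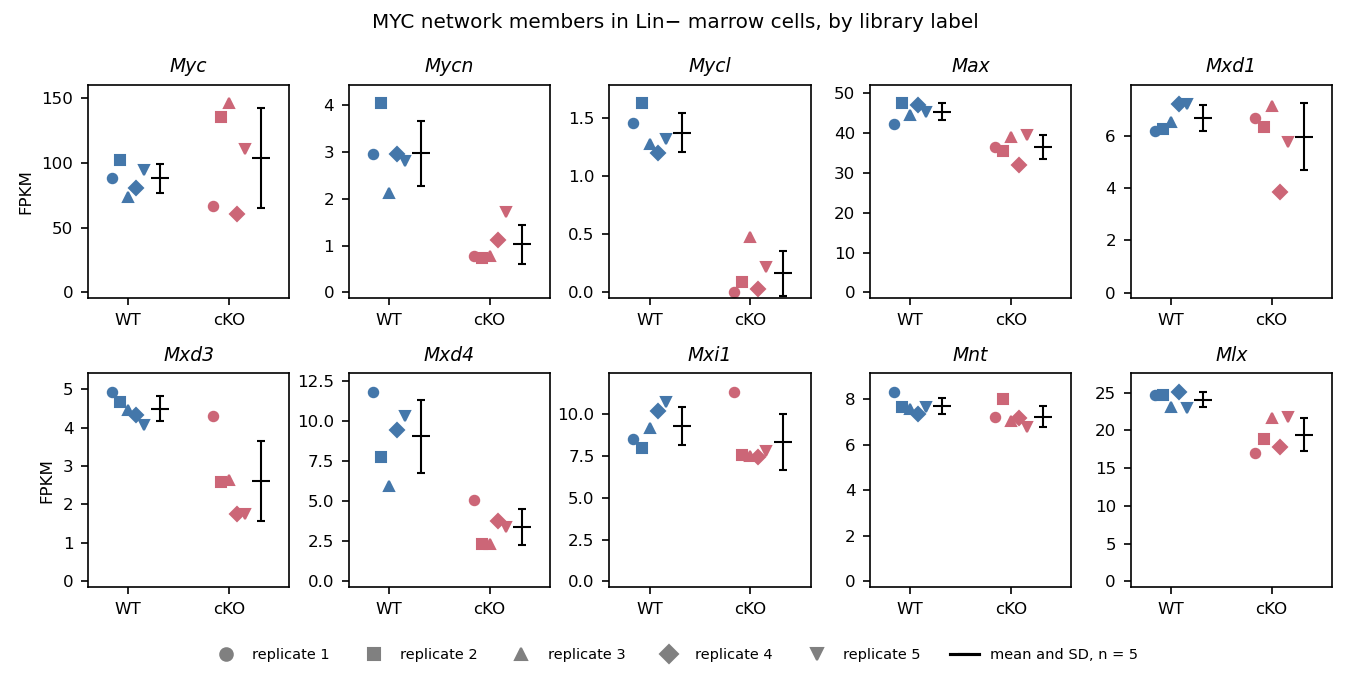
FPKM of the 10 members in each library, by label, with a marker shape for each replicate number and the mean and SD (n = 5) beside each group. The groups of Mycn, Mycl, Max, Mxd4 and Mlx do not overlap, and Myc spreads from 60.8 to 146 FPKM in the libraries labelled cKO.

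The MYC class came first. Myc (ENSMUSG00000022346, chr15:61857227-61862223 in GRCm39, + strand), the broadly used growth-promoting member, was the most abundant member in both groups. Its levels were 88.4, 102.3, 73.63, 80.53 and 94.82 FPKM in WT libraries 1 to 5 and 66.46, 134.97, 145.78, 60.76 and 110.7 FPKM in cKO libraries 1 to 5. The groups overlapped, because cKO libraries 1 and 4 lay below every WT library and cKO libraries 2, 3 and 5 above every one. The means were 87.9 ± 11.3 FPKM in WT and 104 ± 38.8 FPKM in cKO (SD, n = 5), and the log2 difference of 0.16 (95% interval -0.37 to 0.69) did not pass the test (limma, adjusted p = 0.623). An exact permutation test gave p = 0.587. The interval leaves room for a change in either direction, and the SD within the cKO group was larger than the difference between the means.

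Mycn (ENSMUSG00000037169, chr12:12986076-12992915, - strand, GRCm39 as for all members), which in adult marrow is known from the stem cell compartment, stood far below Myc on the FPKM scale. It was measured at 2.95, 4.04, 2.12, 2.95 and 2.80 FPKM in WT and at 0.77, 0.74, 0.78, 1.12 and 1.72 FPKM in cKO. The groups did not overlap, with the highest cKO library (number 5) below the lowest WT library (number 3). Mycn fell by 1.49 on the log2 scale (SE 0.250, limma adjusted p = 7.83e-04), and the exact two-sided permutation test gave 0.00794, the smallest value 5 against 5 libraries allow. When 1 rather than 0.1 FPKM was added before the logarithm, the difference was -0.98, just under the 2-fold limit.

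Mycl (ENSMUSG00000028654, chr4:122889408-122896282, + strand), the member known from dendritic cells, had the lowest level in both groups and the largest log2 difference of the 10. Its levels were 1.46, 1.63, 1.28, 1.20 and 1.32 FPKM in WT and 0, 0.09, 0.48, 0.03 and 0.22 FPKM in cKO. Every cKO library lay below every WT library, and within the cKO group libraries 3 and 5 were the highest. By the recovered depth and the annotated exon length these levels stood for 83 to 114 fragments per WT library and 0 to 32 per cKO library. The 0 in cKO library 1 allows up to 0.0515 FPKM (a limit of 3 fragments, counting error only). The ratio of the means was 8.40, and the fitted fall was 2.77 on the log2(FPKM + 0.1) scale (SE 0.436, limma adjusted p = 5.30e-04), a scale that understates the change of genes this low.

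Most dendritic and monocyte markers were lower in cKO as well (7 of 8 called). Irf8, a transcription factor of these lineages, stood at 0.38, 0.42, 5.41, 0.09 and 10.16 FPKM in cKO libraries 1 to 5. Libraries 3 and 5 were thus highest for Irf8 and Mycl, though in opposite order. The same libraries were highest for the B lymphoid sum (6.6 and 7.94 FPKM). They were also highest for the stem and progenitor sum (41.5 and 47.7 FPKM, with 41.4 FPKM in library 1). The dendritic gene H2-Aa was not called, and at 5.69 FPKM in cKO library 3 it lay above every WT library. The 8 monocyte and dendritic markers together summed to 715 to 1269 FPKM in WT and to 5.27 to 194 FPKM in cKO. The part of these cells in the Mycl level was not tested.

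Max (ENSMUSG00000059436, chr12:76984043-77009009, - strand) encodes the shared partner of the MYC, MXD and MNT proteins. It was measured at 42.19, 47.35, 44.53, 46.98 and 45.31 FPKM in WT and at 36.35, 35.46, 38.96, 32.02 and 39.33 FPKM in cKO. The groups did not overlap, although the gap between the highest cKO library and the lowest WT library was small beside the levels. Max fell by 0.32 on the log2 scale (SE 0.0670, limma adjusted p = 0.00304), from 45.3 ± 2.08 to 36.4 ± 2.97 FPKM (n = 5), and remained the second most abundant member in both groups.

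Among the MXD repressors, Mxd4 and Mxd3 were lower and Mxd1 and Mxi1 did not pass the test. Mxd4 (ENSMUSG00000037235, chr5:34331227-34345240, - strand), which is widely expressed in differentiating cells, was measured at 11.78, 7.71, 5.92, 9.44 and 10.28 FPKM in WT and at 5.09, 2.35, 2.31, 3.74 and 3.38 FPKM in cKO. The groups did not overlap, with the highest cKO library (number 1) below the lowest WT library (number 3). Mxd4 fell by 1.42 on the log2 scale (SE 0.243, limma adjusted p = 8.67e-04), a ratio of means of 2.68.

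Mxd3 (ENSMUSG00000021485, chr13:55472981-55477908, - strand), an MXD member known for expression in cycling cells, was measured at 4.92, 4.66, 4.45, 4.33 and 4.07 FPKM in WT and at 4.30, 2.58, 2.63, 1.75 and 1.75 FPKM in cKO. The groups overlapped only through cKO library 1, which lay above WT library 5. Mxd3 fell by 0.84 (SE 0.220, limma adjusted p = 0.00970), and without cKO library 1 it fell by 1.03 and was called lower. Under quantile normalization it no longer passed the test (-0.44, adjusted p = 0.111).

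Mxd1 (ENSMUSG00000001156, chr6:86624024-86646218, - strand), a repressor known to rise during granulocyte differentiation, was measured at 6.17, 6.26, 6.51, 7.20 and 7.19 FPKM in WT and at 6.68, 6.34, 7.12, 3.84 and 5.76 FPKM in cKO. The groups overlapped, with cKO library 4 the lowest of all. The log2 difference was -0.19 (95% interval -0.53 to 0.15, limma adjusted p = 0.350), and it turned to 0.06 under quantile normalization. Markers of neutrophils, the lineage with which Mxd1 is associated, summed to 2599, 181, 857, 147 and 1120 FPKM in cKO libraries 1 to 5. In WT they summed to 2729 to 3712 FPKM. Libraries 2 and 4 of the cKO group had sums near each other, with Mxd1 at 6.34 FPKM in library 2 and 3.84 FPKM in library 4. In cKO library 1 S100a9 gave 894.75 FPKM of the sum, against 48.33 to 93.11 FPKM in WT. Mpo stood there at 277.33 FPKM, against 973.78 to 1345.98 FPKM in WT. The part of these cells in the Mxd1 level was not tested.

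Mxi1 (ENSMUSG00000025025, chr19:53298852-53364241, + strand), a MYC antagonist also known as a hypoxia-responsive gene, was measured at 8.50, 8, 9.21, 10.18 and 10.73 FPKM in WT and at 11.33, 7.57, 7.49, 7.43 and 7.83 FPKM in cKO. Library 1 of the cKO group was the highest of all 10, and the other 4 cKO libraries were below every WT library. The log2 difference was -0.17 (95% interval -0.47 to 0.12, limma adjusted p = 0.323). Without cKO library 1 it was -0.29 with an adjusted p of 0.027 by limma, so that library decides whether Mxi1 passed the test.

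Mnt (ENSMUSG00000000282, chr11:74721338-74736836, + strand) encodes a constitutive MAX partner that acts as a general MYC antagonist. It was measured at 8.30, 7.64, 7.56, 7.35 and 7.63 FPKM in WT and at 7.20, 8.01, 7.02, 7.16 and 6.75 FPKM in cKO. The groups overlapped through cKO library 2, and the spread within each was narrow. The log2 difference was -0.09 (95% interval -0.26 to 0.08, limma adjusted p = 0.359), and its sign depended on the scaling, being 0.01 with median-ratio scaling and 0.10 with quantile normalization.

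Mlx (ENSMUSG00000017801, chr11:100978080-100983043, + strand) encodes the MAX-like partner of MondoA, ChREBP and some MXD proteins. It was measured at 24.68, 24.65, 23.14, 25.08 and 22.92 FPKM in WT and at 16.95, 18.92, 21.69, 17.86 and 21.78 FPKM in cKO. All cKO libraries lay below all WT libraries, with cKO libraries 3 and 5 nearest to them. Mlx fell by 0.31 (SE 0.0807, limma adjusted p = 0.00856), a change of the same size as that of Max. The 5 members whose groups did not overlap (Mycn, Mycl, Max, Mxd4 and Mlx) were all lower in cKO, against 21.6% of all tested genes without overlap on the lower side and 10.6% on the higher side.

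**Figure D2:**
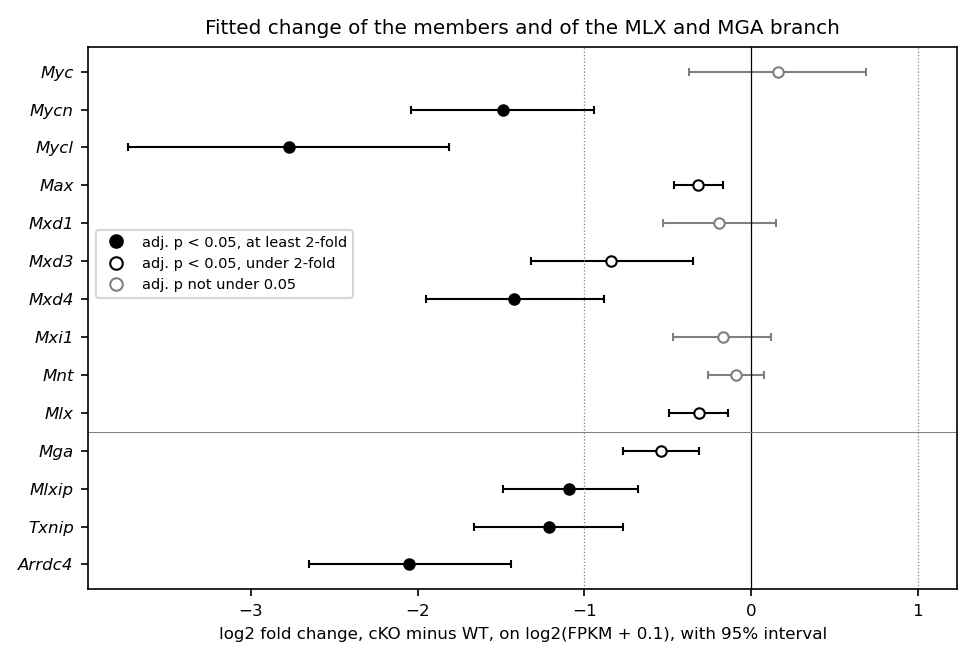
Fitted log2 fold change (cKO minus WT, on log2(FPKM + 0.1)) of each member and, below the line, of Mga, Mlxip, Txnip and Arrdc4, with 95% intervals. Filled points were called, open black points had an adjusted p under 0.05 with less than 2-fold change, and grey points did not pass the test. The interval of Mycl lies farthest to the left and those of Myc, Mxd1, Mxi1 and Mnt cross 0.

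The sexes bear on these tests because only WT libraries 1 and 2 had Xist under 1 FPKM, like all cKO libraries. With those 2 WT libraries alone against the 5 cKO libraries, Mycn (-1.73, limma adjusted p = 0.0174), Mycl (-2.93, adjusted p = 0.0225) and Mxd4 (-1.53, adjusted p = 0.0181) were still called lower. Max (-0.30, adjusted p = 0.0739), Mlx (-0.35, adjusted p = 0.0750) and Mxd3 (-0.93, adjusted p = 0.0886) kept their sign and no longer passed the test in this smaller comparison by limma.

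Several members share their locus with a gene on the other strand in the GENCODE annotation: Mxd3 with Prelid1, Mlx with Psmc3ip, Mxd4 with Mxd4os1, Mxi1 with Gm30541, and Myc, Mycn, Mycl and Mnt with predicted genes. Whether the libraries kept the strand was not given in the sources used here, so reads of such partners cannot be told apart with certainty. Prelid1, a mitochondrial lipid transfer gene, stood at 59.9 ± 1.97 FPKM in WT and 60.3 ± 3.56 FPKM in cKO, many times the level of Mxd3. Psmc3ip, a recombination gene, stood at 12.1 ± 2.31 and 14.9 ± 1.55 FPKM, higher in cKO where Mlx was lower. Mxd4os1 was listed at 0 in all libraries.

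The order of the members by level was the same at its ends in both groups. In WT it ran Myc, Max, Mlx, Mxi1, Mxd4, Mnt, Mxd1, Mxd3, Mycn and Mycl by mean FPKM, and in cKO it ran Myc, Max, Mlx, Mxi1, Mnt, Mxd1, Mxd4, Mxd3, Mycn and Mycl. Neighbours in the WT order did not overlap except Mxi1 with Mxd4 and Mxd4 with Mnt. In the cKO order each neighbour from Mxi1 down to Mxd3 overlapped the next, while Myc, Max and Mlx at the top and Mycn and Mycl at the bottom stood apart. Mxd4 was the member that moved in the order, from above Mnt and Mxd1 in WT, at 9.03 ± 2.28 FPKM, to below both in cKO, at 3.37 ± 1.15 FPKM.

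The make-up of the network was then summed per library, as a description with no test. The MYC class (Myc, Mycn and Mycl together) summed to 92.3 ± 12.1 FPKM in WT and 105 ± 38.9 FPKM in cKO. Myc itself made up 95.3% ± 0.423 of that sum in WT and 98.8% ± 0.540 in cKO, without overlap between the groups (94.7 to 95.8% against 98.1 to 99.4%). The level of Myc did not pass the test, while Mycn and Mycl in the same sum fell. The MXD class (Mxd1, Mxd3, Mxd4 and Mxi1) summed to 31.4, 26.6, 26.1, 31.1 and 32.3 FPKM in WT and to 27.4, 18.8, 19.6, 16.8 and 18.7 FPKM in cKO. Libraries 2 to 5 of the cKO group lay below every WT library, and library 1 lay within the WT range.

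Within the MXD class the shares of Mxi1 and Mxd4 were close in WT and apart in cKO, with Mxi1 first by its mean share in both groups. Mxd4 made up 30.3% ± 5.36 of the class in WT and 16.6% ± 4.43 in cKO, and Mxi1 made up 31.7% ± 3.17 and 41.2% ± 2.21, both without overlap between the groups. A share also moves with the rest of its sum. The level of Mxi1 itself was 9.32 FPKM in WT and 8.33 FPKM in cKO and did not pass the test, while Mxd4 and Mxd3 fell. The ratio of the MYC class to the MXD class was 2.96, 4.05, 2.95, 2.72 and 3.07 in WT and 2.45, 7.21, 7.52, 3.69 and 6.02 in cKO. Library 1 was the lowest of all and library 4 lay within the WT range, while cKO libraries 2, 3 and 5 lay above every WT library. With Mnt counted among the repressors the mean ratio was 2.49 ± 0.382 in WT and 3.91 ± 1.57 in cKO.

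**Figure D3:**
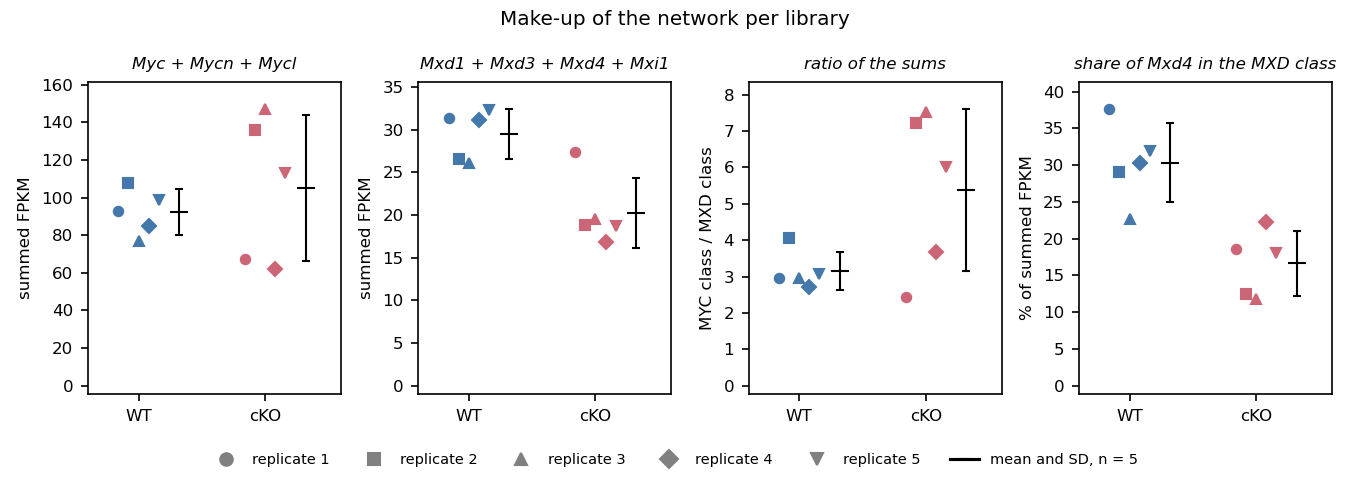
Summed FPKM of the MYC class and of the MXD class, the ratio of the sums, and the share of Mxd4 in the MXD class (%), per library and by label, with the mean and SD (n = 5). Library 1 of the cKO group keeps an MXD sum of 27.4 FPKM and the lowest ratio, 2.45, and the share of Mxd4 does not overlap between the groups.

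Other partners of MAX and MLX, Mga and Mlxip, were lower as well. Mga, a MAX partner that joins a Polycomb complex, was measured at 12.64 to 16.11 FPKM in WT and 8.12 to 11.59 FPKM in cKO, and fell by 0.54 on the log2 scale (limma adjusted p = 0.00191). Mlxip, which encodes MondoA, was measured at 20.26, 13.40, 11.90, 14.52 and 16.07 FPKM in WT and at 9.99, 6.39, 7.09, 5.04 and 7.33 FPKM in cKO. The groups of both genes did not overlap. Mlxip fell by 1.09 (SE 0.184, limma adjusted p = 7.98e-04), while its paralog Mlxipl (ChREBP), known from liver and fat, was between 0 and 0.03 FPKM in all libraries and was not tested.

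Txnip and Arrdc4, the arrestin-family genes best known as direct MondoA and MLX targets and as brakes on glucose uptake, were both called lower. Txnip was measured at 142.03, 84.79, 61.29, 100.9 and 110.6 FPKM in WT and at 50.02, 37.72, 49.62, 37.92 and 34.31 FPKM in cKO. Arrdc4 was measured at 8.20, 7.32, 4.07, 7.17 and 8.15 FPKM in WT and at 1.70, 1.56, 2.36, 0.80 and 1.84 FPKM in cKO. Neither gene overlapped between the groups, and WT library 3 was the lowest WT library for both and for Mlxip. That library was also the lowest of WT for genes outside this branch, among them Mycn, Mxd4, Hk2 and Pkm. Txnip fell by 1.21 (SE 0.203, limma adjusted p = 7.50e-04) and Arrdc4 by 2.05 (SE 0.276, limma adjusted p = 2.42e-04).

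**Figure D4:**
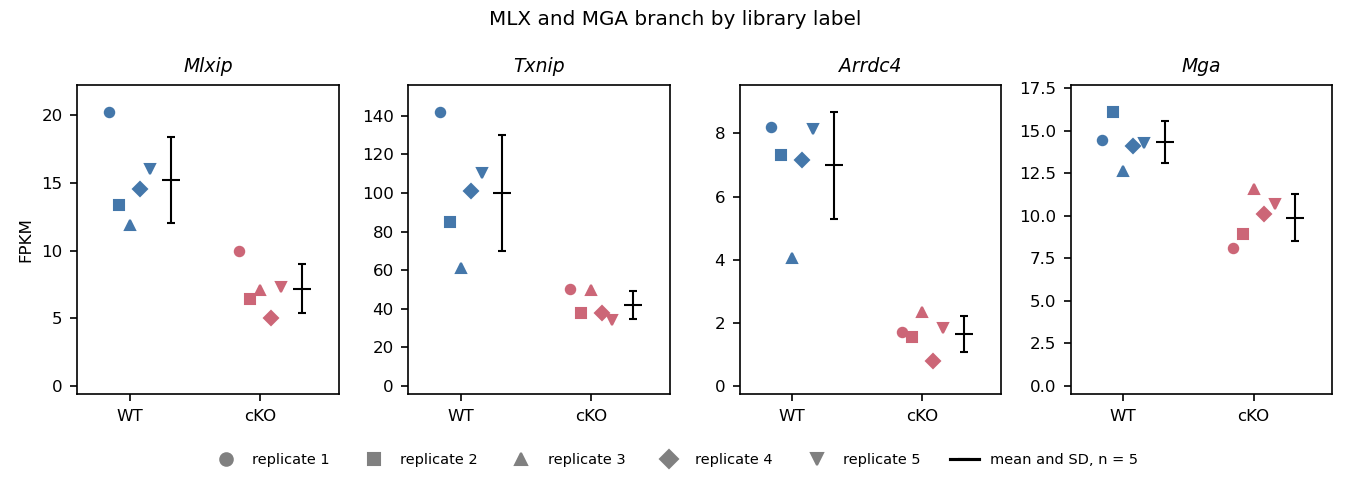
FPKM of Mlxip, Txnip, Arrdc4 and Mga per library, by label, with the mean and SD (n = 5). All 5 libraries labelled cKO lie below all 5 labelled WT in each panel, with Arrdc4 at 6.98 ± 1.69 FPKM in WT and 1.65 ± 0.564 FPKM in cKO.

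Cofactors that MYC and MXD proteins recruit had no calls at the 2-fold limit, at which 4.60% of all genes tested were called higher and 16.8% lower. Of 18 MYC cofactors tested, 0 were called in either direction by limma, and by the adjusted p alone 4 rose and 3 fell (median log2 fold change 0.01). Ruvbl2, an ATPase of chromatin remodelling complexes, rose from 52.0 ± 7.01 to 73.0 ± 14.3 FPKM (0.47, limma adjusted p = 0.0233), and the acetyltransferase gene Ep300 fell from 16.3 ± 1.61 to 12.6 ± 1.68 FPKM (-0.37, limma adjusted p = 0.0131). Neither passed the test with the 2 WT libraries of low Xist alone. Of the 19 SIN3 and NCOR corepressor genes, 0 were called, 1 rose and 5 fell by the adjusted p (median -0.14). For both lists, the shares of all genes tested by the adjusted p alone were 16.7% rising and 28.3% falling. Sap30 fell from 38.7 ± 3.72 to 23.1 ± 6.34 FPKM (-0.78, limma adjusted p = 0.00311) and Arid4a from 19.3 ± 2.12 to 11.6 ± 2.21 FPKM (-0.75, limma adjusted p = 9.92e-04), both being subunits of SIN3 complexes.

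Genes that set the stability of the MYC protein moved in both directions, with 0 of 16 called higher and 1 lower by limma and 6 rising and 3 falling by the adjusted p (median 0.11). Over all genes tested, 4.60% were called higher and 16.8% lower, and by the adjusted p alone 16.7% rose and 28.3% fell. Fbxw7, which encodes the ubiquitin ligase subunit that marks MYC for degradation, rose from 4.61 ± 0.272 to 7.82 ± 1.34 FPKM (0.73, limma adjusted p = 8.89e-04). Ppp2r5a, which encodes a phosphatase subunit that acts on MYC serine phosphorylation before that step, fell from 18.8 ± 2.36 to 8.52 ± 1.41 FPKM (-1.14, limma adjusted p = 1.06e-04). MYC protein itself was not measured here.

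Of 9 regulators of the Myc transcript tested, 1 was called higher and 1 lower, against 4.60% and 16.8% of all genes tested. Pvt1, the long non-coding RNA gene that neighbours Myc, was measured at 1.69, 1.94, 1.97, 1.43 and 1.63 FPKM in WT and at 3.82, 5.67, 4.91, 6.33 and 4.46 FPKM in cKO. The groups did not overlap, and cKO library 4, which had the lowest Myc of all libraries, had the highest Pvt1. Pvt1 rose by 1.48 (SE 0.158, limma adjusted p = 9.33e-05). Igf2bp2, an RNA-binding protein that stabilises Myc mRNA, fell from 0.370 ± 0.108 to 0.114 ± 0.0313 FPKM (-1.12, limma adjusted p = 0.00377), a call lost under 6 of the alternatives, among them a pseudocount of 1, the higher filter, under which it was not tested, and leaving out WT library 5.

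The known MYC-activated targets were mostly higher in the libraries labelled cKO, although Myc itself did not pass the test. Of 55 tested, 4 were called higher and 4 lower, and by the adjusted p alone 38 rose and 5 fell, with a median log2 fold change of 0.51 against -0.11 over all genes tested. Of all genes tested, 4.60% were called higher and 16.8% lower, and by the adjusted p alone 16.7% rose and 28.3% fell. The targets were sorted by role after their values had been seen, so the counts by role are a description. All 17 genes of the nucleolus and ribosome assembly had positive differences, and 15 of them rose. Examples were Nop58, a core protein of snoRNA particles (30.9 ± 4.23 to 56.0 ± 7.31 FPKM, 0.86), and Ncl, nucleolin (200 ± 36.2 to 318 ± 29.0 FPKM, 0.68).

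Both mitochondrial folate enzymes were called higher, as was Slc7a5 among the 3 tested genes of amino acid transport and use (0.27 to 1.27, median 0.56). Mthfd2 rose from 13.7 ± 2.91 to 65.3 ± 26.5 FPKM (2.09, limma adjusted p = 0.00121) and Shmt2, the enzyme that feeds the same pathway from serine, from 61.4 ± 10.6 to 140 ± 31.8 FPKM (1.17, limma adjusted p = 5.10e-04). Slc7a5, the large neutral amino acid transporter, rose from 41.2 ± 9.59 to 99.8 ± 22.8 FPKM (1.27, limma adjusted p = 5.87e-04). In all of these cKO library 1 had the smallest value of its group. Hspe1, the mitochondrial co-chaperonin, rose from 139 ± 25.3 to 282 ± 63.5 FPKM (1.0, limma adjusted p = 0.00125), and 5 of the 6 mitochondrial chaperone and matrix or inner membrane genes rose.

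The glycolytic targets split. Ldha and Eno1 rose (0.66 and 0.20), while Hk2, Pkm and Slc2a1 were called lower. Hk2, hexokinase 2, was measured at 15.09, 11.34, 10.50, 13.11 and 14.32 FPKM in WT and at 2.81, 4.20, 5.54, 3.35 and 6.08 FPKM in cKO, without overlap, and fell by 1.57 (SE 0.206, limma adjusted p = 2.07e-04). Pkm, pyruvate kinase, fell from 128 ± 20.8 to 54.6 ± 11.8 FPKM (-1.24, limma adjusted p = 1.76e-04), and Slc2a1, the glucose transporter GLUT1, from 3.32 ± 0.631 to 1.38 ± 0.534 FPKM (-1.28, limma adjusted p = 0.00319). The Slc2a1 difference was under the 2-fold limit with a pseudocount of 1 (-0.88) and with quantile normalization (-0.79), and it did not pass the test with the 2 WT libraries of low Xist (-1.17, limma adjusted p = 0.0803). Tert, telomerase reverse transcriptase, fell from 0.222 ± 0.0572 to 0.0460 ± 0.0391 FPKM (-1.17, limma adjusted p = 0.00578). At this low level its call was lost with a pseudocount of 1 (-0.22), with quantile normalization (-0.70, limma adjusted p = 0.0761) and with an Xist covariate (-1.11, limma adjusted p = 0.0504), and it was not tested at a mean of at least 1 FPKM or with the low-Xist WT libraries.

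**Figure D5:**
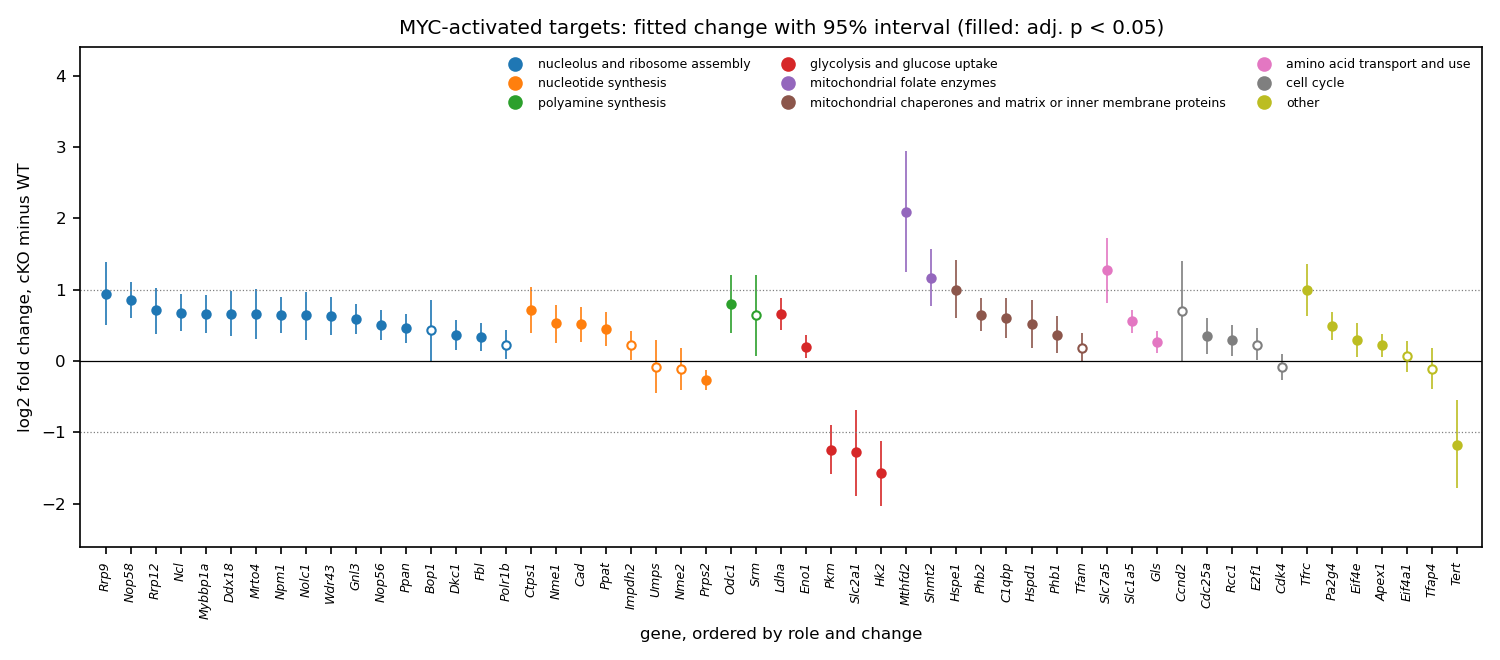
Fitted log2 fold change (cKO minus WT) with 95% interval for the 55 tested MYC-activated targets, coloured by role, with filled points for an adjusted p under 0.05. Nucleolar genes lie above 0, Mthfd2 is highest at 2.09, and Hk2, Slc2a1, Pkm and Tert lie below -1.

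The level of the targets and the level of Myc were also set side by side in each library. The median log2 difference of the 55 targets from their WT means was 0.22, 0.63, 0.60, 0.48 and 0.52 in cKO libraries 1 to 5 and -0.21, 0.10, 0.26, -0.02 and -0.11 in WT libraries 1 to 5. Library 4 of the cKO group, with the lowest Myc of all (60.76 FPKM), had 45 of the 55 targets above the WT mean. Library 3 of the WT group, with the lowest Myc among WT (73.63 FPKM), had the highest median of its group and 48 targets above the WT mean. It also had the highest erythroid marker sum of the WT libraries, 1499 FPKM against 567 to 849 FPKM in the other 4. WT libraries 2, 4 and 5 came after it in the same order by sum (710, 681 and 567 FPKM) and by median. WT library 1 did not, with the next highest WT sum, 849 FPKM, and the lowest median of the targets. In cKO, libraries 2, 3 and 4 had the same order by sum (2944, 2864 and 2554 FPKM) and by median. Library 5, at 1876 FPKM, had the lowest cKO sum and a higher median than library 4. Library 1 of the cKO group had the highest sum of all, 3144 FPKM, and the lowest median of its group. The part of erythroid cells in the level of the targets was not tested.

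CACGTG stood in the promoter windows of 10 of the 44 targets with a window (22.7%). The window of Cdk4, the cyclin-dependent kinase of early cell cycle entry, held 4 copies, and its level did not pass the test (107 ± 9.13 FPKM in WT and 101 ± 9.56 FPKM in cKO). The window of Apex1, a DNA repair endonuclease gene, held 3, and Apex1 rose from 39.5 ± 1.72 to 46.2 ± 4.74 FPKM (0.22, limma adjusted p = 0.0306).

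Genes known to be repressed by MYC moved in both directions, with 3 of 8 called higher and 3 lower by limma (median -0.85), against 4.60% and 16.8% of all genes tested. The cell cycle inhibitor gene Cdkn1a (p21), also a p53 target, rose from 2.63 ± 0.932 to 28.6 ± 14.4 FPKM (3.21, limma adjusted p = 6.22e-04). Cdkn2b (p15) rose from 0.0540 ± 0.0607 to 1.25 ± 0.657 FPKM (3.09, limma adjusted p = 1.67e-04) and the stress gene Gadd45a from 16.5 ± 0.956 to 42.2 ± 8.86 FPKM (1.32, limma adjusted p = 1.05e-04). Cebpa, the myeloid transcription factor, fell from 45.3 ± 9.64 to 7.08 ± 5.63 FPKM (-3.09, limma adjusted p = 0.00104), next to the lower myeloid markers given above.

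Cdkn2c (p18) fell from 22.8 ± 2.42 to 10 ± 6.64 FPKM (-1.36, limma adjusted p = 0.00369), with cKO library 1 far above the others of its group, and Ndrg1 fell from 8.72 ± 1.80 to 3.52 ± 0.547 FPKM (-1.27, limma adjusted p = 1.69e-04). Of 10 proliferation genes, 0 were called by limma, and by the adjusted p 2 rose and 2 fell (median 0.15). Over all genes tested, 4.60% were called higher and 16.8% lower, and by the adjusted p alone 16.7% rose and 28.3% fell. The replication gene Mcm2 rose from 57.6 ± 9.48 to 76.6 ± 4.52 FPKM (0.42, limma adjusted p = 0.00575), and the topoisomerase gene Top2a fell from 136 ± 4.68 to 100 ± 12.7 FPKM (-0.45, limma adjusted p = 0.00105).

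Genes whose standardised profiles over the 10 libraries were closest to those of Myc and of Mycl were found by the mean absolute difference of z-scores. Nearest to Myc were Rtl10 (0.341), Sde2 (0.374) and Tut1 (0.384), none of which passed the test between the groups, as for Myc. Nearest to Mycl were Sh2b2 (0.102), a signalling adaptor gene, Dnmt3a (0.115), a DNA methyltransferase gene, and Gm12715 (0.118), a predicted gene. Sh2b2 was measured at 3.53 to 5.56 FPKM in WT and at 0.29, 0.67, 1.96, 0.40 and 1.74 FPKM in cKO, with libraries 3 and 5 the highest of the cKO group as for Mycl. Dnmt3a was measured at 5.53 to 7.24 FPKM in WT and 1.5 to 3.28 FPKM in cKO. Closeness of this kind describes 10 libraries that share the same split into labels, with the differences in marker genes given above.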

How the data were processed

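Lin- bone marrow RNA was isolated with TRIzol and sequenced as paired-end reads. The submitters' processing notes name cutadapt 1.9.1, HISAT2 2.0.1, HTSeq 0.6.1 and GRCm39, and the authors deposited FPKM per gene (counts divided by gene length and by library size), with gene lengths and annotation not given in the sources used here. Raw counts were not used here. Whole fragments were recovered for 95.4 to 95.9% of low values (up to 20 fragments, tolerance 0.2) at single-transcript genes, which gave the depth of each library. Floors cover counting error only, while the 95% intervals of log2 differences come from the limma fit and reflect the spread between libraries.

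The filter kept genes whose average over the libraries reached 0.1 FPKM, and log2(FPKM + 0.1) was tested with limma 3.58.1 (R 4.3.3, trended prior, two-sided, Benjamini-Hochberg over 18742 genes), 5 libraries labelled cKO against 5 labelled WT, and called at an adjusted p under 0.05 and at least 2-fold. Since the values are FPKM, limma took the place of the count model of the study. The p-values measure the spread between these libraries. Libraries of a group differed beyond sampling noise (chi-square per degree of freedom at least 3.49), so none was counted as a duplicate. Single values had exact two-sided permutation tests. The members, gene lists, markers, alternatives and tests were chosen with earlier results of these data known. The genes named were all members, all other MAX and MLX partners, and of each list the called genes with the largest rises and falls (3 each, 5 each for activated targets), or with fewer than 2 called genes the 2 largest changes. Other genes named (examples by role, promoter examples, markers) were chosen after their values were seen. Of the listed genes, 1 marker, Vpreb1, had no match, and Bcat1, Igf2bp1 and Mlxipl were too low to test. Coordinates are from GENCODE on GRCm39, and promoter sequences from RefSeq on GRCm38.p6. The test was checked on simulated data.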

Additional observations from a re-analysis of the deposited data

Results flagged for a closer look

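Among 112 groups of 5 libraries tested for a single library far from the others (Dixon's test, critical value 0.71), 13 stood out, where about 5.6 would by chance, and 9 of the 13 were cKO library 1. The groups were not independent, since the sums and ratios contain members that were also tested alone. The number by chance is therefore only a rough guide. For Mxi1, cKO library 1 had 11.3 FPKM and the others 7.43 to 7.83. It was likewise high for the MXD class sum (27.4 FPKM against 16.8 to 19.6), for that sum with Mnt (34.6 FPKM against 23.9 to 26.9), for the ratio of the MXD class to Max (0.754 against 0.476 to 0.531), for Cdkn2c (21.7 FPKM against 5.87 to 8.47) and for Top2a (122 FPKM against 91.9 to 96.4). It was low for Mthfd2 (18.1 FPKM against 73.2 to 80.5), Slc7a5 (59.6 FPKM against 104 to 114) and Shmt2 (84.9 FPKM against 145 to 165).

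The other libraries that stood out were WT library 2 for the ratio of the MYC class to the MXD class (4.05 against 2.72 to 3.07), WT library 3 for Arrdc4 (4.07 FPKM against 7.17 to 8.20), WT library 4 for Tert (0.32 FPKM against 0.170 to 0.210) and cKO library 3 for Mlxipl (0.0300 FPKM against 0).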

How the results depend on the processing

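Of 209 values of the 10 members under the alternatives, 201 kept their direction and their side of the threshold, 4 no longer passed, 1 newly passed (Mxi1 without cKO library 1) and 3 turned sign. The causes were not tested. All genes called higher, 862 as reported, numbered 356 with a pseudocount of 1, 462 with a mean of at least 1 FPKM, 1581 with quantile normalization, 536 with the WT libraries of Xist under 1 FPKM and 3138 by the adjusted p alone. Those called lower, 3153 as reported, numbered 1486, 1827 and 5300 with the pseudocount of 1, the higher filter and the adjusted p alone. Quantile normalization moved the median of all genes from -0.11 to 0.10 and the share of calls that were higher from 21.5% to 41.3%. Members called lower numbered 6 and activated targets called higher 38 by the adjusted p alone, and activated targets called lower numbered 2 with the pseudocount of 1, with quantile normalization and with the low-Xist WT libraries (Slc2a1 and Tert no longer counted). Mycl was not tested at a mean of at least 1 FPKM, and Mycn lost its call at the pseudocount of 1. Leaving out 1 library in turn gave 762 to 948 genes called higher, 2892 to 3268 called lower, 0 members higher, 3 to 4 members lower (Mxd3 added without cKO library 1), 3 to 6 activated targets higher and 4 lower. With Mnt added, the WT ratio was 2.49.

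Signs turned for Mxd1 (0.06, quantile normalization), Mnt (0.01 with median-ratio scaling, 0.10 with quantile normalization), Rtl10 (-0.20 with an Xist covariate and -0.20 with the low-Xist WT libraries, -0.10 to 0.35 with 1 library left out, negative in 4 of 10) and Tut1 (-0.02 with equal sums, -0.00 with the Xist covariate and -0.00 with the low-Xist WT libraries, -0.08 to 0.11 with 1 library left out, negative in 4 of 10). Of 731 values of other named genes, 703 kept direction and side, 15 no longer passed and 13 turned sign. Replicate numbers did not pair the libraries (correlations of same-numbered deviations of -0.01 to 0.12), and the replicate block gave 857 genes higher, 3107 lower and the same 3 members lower. Depth limits precision for low genes such as Mycl (0 to 32 fragments in cKO), Tert, Igf2bp2 and Cdkn2b.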
